A study of Drosophila melanogaster with 9 samples.

Results

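The UDP-glycosyltransferase genes of Drosophila melanogaster, whose symbols begin with Ugt and a digit, were followed in the larval midgut across a lectin diet, starvation and normal feeding. The array carried 33 such genes, among 10844 genes with a probe set of their own, on 35 single-gene probe sets of 13966. Where a gene had several probe sets the brightest stood for it. Another 2 Ugt genes of the RefSeq annotation, Ugt50B3 and Ugt35D1, were not analysed here.

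Total RNA came from dissected midguts of third-instar larvae of the white-eyed strain w1118, with 50 midguts pooled for each array and 3 biological replicates in each of 3 groups. Larvae of the WGA group were 108 h old (108 to 110 h for replicate 1) and then fed for 12 h on 1% WGA, wheat germ agglutinin, a plant lectin that binds N-acetylglucosamine and chitin. Starved larvae were 108 h old and then went without food for 12 h. Control larvae were labelled as normal, 12 h, with an age of 120 h, and their food is not described in the labels. The labels do not say whether the control age and the treated age plus 12 h end at the same point, so an age difference between control and treated larvae cannot be told apart from the treatments. All groups carried the same strain background and no transgene is named.

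UDP-glycosyltransferases sit in the membrane of the endoplasmic reticulum and move a sugar from a UDP-sugar, in insects mainly glucose from UDP-glucose, onto small fat-soluble molecules. The sugar makes the molecule soluble in water, so that it can be pumped out of the cell or excreted. Insect members act on plant toxins, insecticides, odorants, pigments and hormones, and the midgut, Malpighian tubules and fat body are known sites of their expression. Many fly Ugt genes lie side by side as tandem copies. The array annotation and the RefSeq gene order put 23 of the 33 genes in 6 groups of neighbours with at most 2 other protein-coding genes between members. The longest of them holds 10 genes, from Ugt35C1 to Ugt303A1, all of them with an older symbol that begins with Ugt86D.

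The arrays gave a signal intensity for each probe set, and the values below are signals after quantile normalisation, which gives every array the same distribution. Deposited signals summed to 1184150 to 1457250 on the WGA arrays, 909028 to 1277320 on the starvation arrays and 976428 to 1367790 on the control arrays. Pearson r across tested probe sets lay between 0.907 and 0.950 for arrays of one group, and between 0.843 and 0.905 for arrays of different groups. RNA integrity was read from control probe sets at both ends of the eIF-4a transcript. Their 3 prime signal over their 5 prime signal was 2.75 to 3.52 on WGA arrays, 2.83 to 3.56 on starvation arrays and 3.60 to 5.71 on control arrays, and the same ratio for GAPDH was 2.22 to 2.41 on WGA arrays, 2.92 to 3.35 on starvation arrays and 1.97 to 2.92 on control arrays. For actin it was 1.17 to 1.49 on WGA arrays, 1.44 to 1.51 on starvation arrays and 1.44 to 2.36 on control arrays. The part of these ratios in the results was not tested. A probe set was tested only if its normalised signal passed 5.18, the 40th percentile and here called the filter level, on 3 arrays or more of the 9. Of the 33 Ugt genes 26 passed. Changes are log2 changes ± SE of a limma fit to all 9 arrays, with n = 3 arrays per group, called where the p adjusted by Benjamini and Hochberg across the 9675 tested probe sets was under 0.05. In RNA from whole midguts, fewer cells of a type and less RNA per cell cannot be told apart.

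On the WGA diet 7 of the 26 tested Ugt genes fell and 0 rose against control, by limma. The background was 10.1% of all 9675 probe sets falling and 11.6% rising. The calls of Ugt37B1, Ugt35B1 and Ugt302C1 held in each of the 21 alternative analyses. Ugt49C1, Ugt307A1, Ugt49B1 and Ugt35E1 also fell. At an unadjusted p under 0.05, 13 of the 26 passed, against 32.8% of all tested probe sets. The median log2 change of the 26 was -0.34, against 0.03 over all tested probe sets. With quantile normalisation kept, 1 Ugt gene rose with the offset at the 40th percentile, the filter at the 60th percentile or no variance trend. The same number rose with only the groups compared in the fit, or with the mean of all probe sets of a gene. With 1 array left out, 0 to 1 rose. The split moved further with the scaling. Under cyclic loess 0 Ugt genes rose and 6 fell, where 11.3% of all tested probe sets rose and 10.6% fell. Under median centring 2 rose and 6 fell, where 13.5% of all rose and 9.24% fell. Under the deposited scaling 6 of 27 rose and 3 fell, where 21.7% of all rose and 4.72% fell. Under spike-in scaling 6 of 26 rose and 3 fell, where 22.6% of all rose and 4.26% fell. The share of Ugt genes that rose in these last cases, 22.2% and 23.1%, was near that of all probe sets. The arrays of the groups did not overlap for 13 of the 26, against 38.3% of all tested probe sets.

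**Figure D1:**
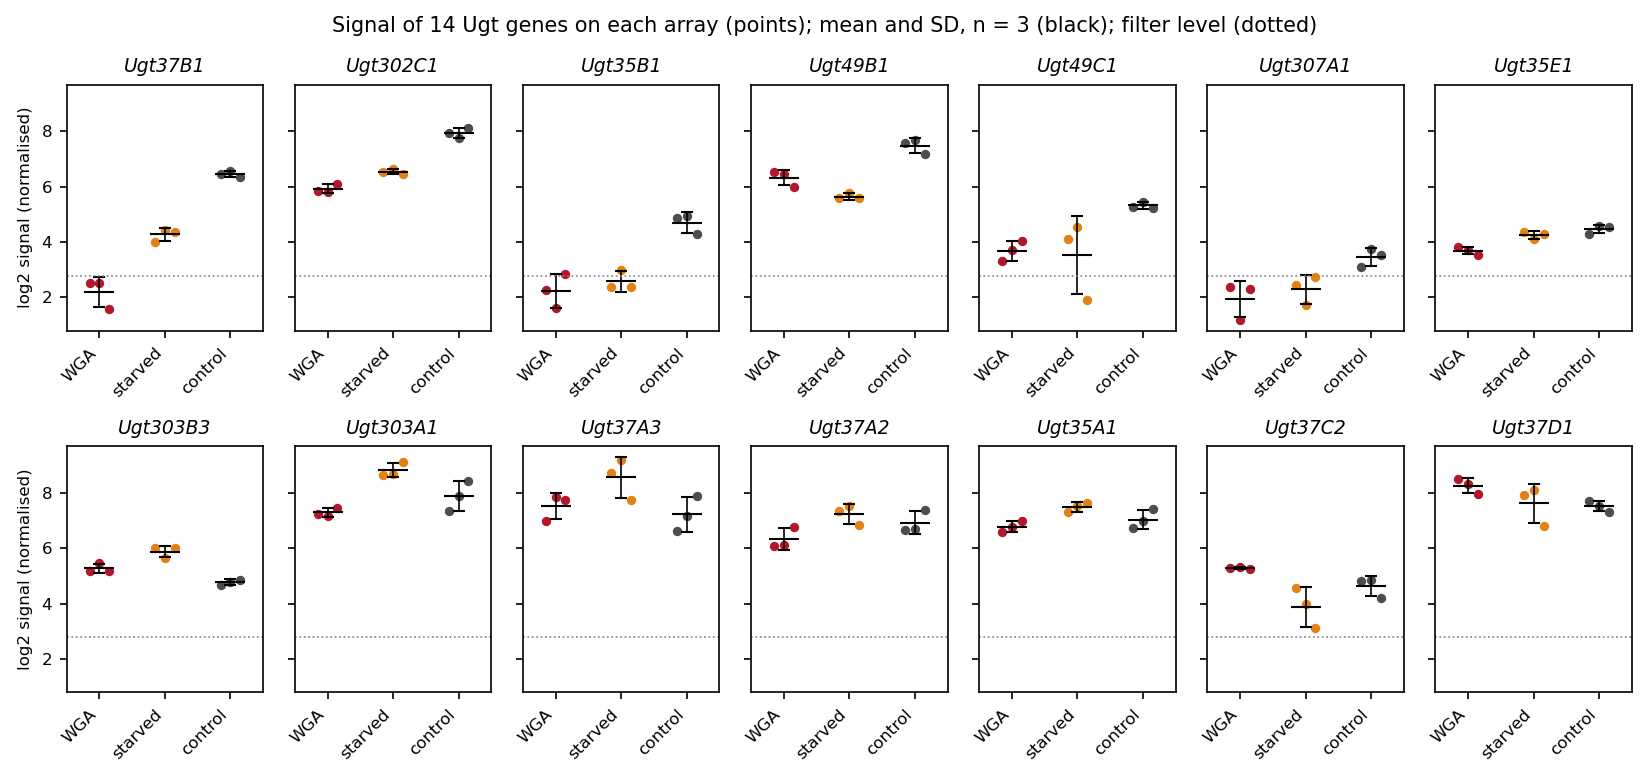
Log2 signal after quantile normalisation (vertical axis) of 14 Ugt genes on each of the 9 arrays, with the mean and SD of the 3 arrays of a group in black and the filter level of 2.79 as a dotted line. Ugt37B1, Ugt302C1, Ugt35B1 and Ugt49B1 sit lower in both treatments than on every control array, while Ugt303B3 sits higher.

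Ugt37B1, which has no Ugt neighbour in the annotation, had normalised signals of 4.02, 3.99 and 1.23 on the WGA arrays, 14.5, 20.2 and 18.8 on the starvation arrays, and 86.2, 93.0 and 80.7 on the control arrays. The 3 groups did not overlap, with WGA lowest, starvation between and control highest. The fall after WGA was -4.26 ± 0.31 (adjusted p = 4.12e-07). Since all 3 WGA arrays lay under the filter level, its size is best given as at least 12.8-fold lower, from the control mean against that level. That bound holds no sampling error. The fall after starvation was -2.19 ± 0.31, a 4.55-fold lower signal (adjusted p = 0.000274). The difference of WGA against starvation was -2.08 ± 0.31 (adjusted p = 0.000444). From the starvation mean against the filter level it was at least 2.81-fold, again without sampling error. With the offset at the 40th percentile the WGA change was -3.50. All 3 calls held in each of the 21 alternatives, and Ugt37B1 was the one Ugt gene for which the difference between the treatments did so.

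In the row of 10 neighbours from Ugt35C1 to Ugt303A1, 7 genes were tested. Their changes ranged from -2.47 to 0.03 after WGA and from -2.13 to 0.94 after starvation. Ugt302C1, formerly Ugt86Da, read 55.7, 54.8 and 67.3 after WGA, 91.1, 97.2 and 85.5 after starvation, and 245, 214 and 275 in control. Its groups did not overlap either. Its change was -2.01 ± 0.17 after WGA, which is 4.03-fold lower (adjusted p = 1.50e-06), and -1.40 ± 0.17 after starvation, which is 2.64-fold lower (adjusted p = 7.27e-05). The difference of WGA against starvation was -0.61 ± 0.17 (adjusted p = 0.0286), a call that held in 13 of 21 alternatives. It was -0.06 with the deposited scaling and -0.30 with median centring, neither called. It was also lost without WGA replicate 1 (-0.57), WGA replicate 2 (-0.56), starvation replicate 1 (-0.61) or starvation replicate 2 (-0.57).

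Ugt35B1, formerly Ugt35b and Ugt86Db and known for its expression in the fly antenna, read 3.11, 1.34 and 5.39 after WGA, 3.41, 6.25 and 3.46 after starvation, and 27.9, 29.3 and 17.7 in control. Both treatments lay below every control array and overlapped with each other. The falls were -2.47 ± 0.42 after WGA (adjusted p = 0.000742) and -2.13 ± 0.42 after starvation (adjusted p = 0.0035), while the treatments differed by -0.34 ± 0.42 (adjusted p = 0.722). In each treatment 2 of 3 arrays lay under the filter level, so these fold changes are uncertain in size. The WGA change was -1.85 with the offset at the 40th percentile and -1.67 with the mean of all probe sets of the gene, called in both. A dimmer probe set of the same gene was too low to be tested, with 0.546 to 1.72 after WGA, 0.442 to 1.30 after starvation and 0.788 to 7.13 in control.

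The other tested members of this row had smaller changes against control. Ugt35E1, which lies between Ugt302C1 and Ugt35B1, read 12.3, 11.3 and 9.98 after WGA, 18.8, 15.4 and 18.1 after starvation, and 18, 22.0 and 21.7 in control. It fell after WGA with a change of -0.78 ± 0.26 (adjusted p = 0.0472), a call that held in 7 of 21 alternatives. Leaving out any 1 array other than control replicate 1 lost it, with changes of -0.71 (without WGA replicate 3) to -0.83 (without WGA replicate 1). The call was also lost under the deposited scaling (-0.33), median centring (-0.72) and spike-in scaling (-0.27). Its change after starvation was -0.22 ± 0.26 (adjusted p = 0.654). Ugt303A1, at the far end of the row, read 150, 143 and 175 after WGA, 404, 414 and 556 after starvation, and 162, 236 and 341 in control. It rose after starvation by 0.94 ± 0.23 (adjusted p = 0.014), a 1.92-fold higher signal, and every starvation array lay above every control array. The call held in 16 of 21 alternatives and was lost without control replicate 1 (0.66, adjusted p = 0.0521) and without starvation replicate 3 (0.80, adjusted p = 0.0565). It was also lost with the deposited scaling (0.77, adjusted p = 0.12), with median centring (0.62, adjusted p = 0.0897) and without a variance trend (adjusted p = 0.0762). After WGA the change was -0.59 ± 0.23 (adjusted p = 0.0869), which passed without control replicate 1 at -0.84 (adjusted p = 0.011). The difference of WGA against starvation was -1.53 ± 0.23 (adjusted p = 0.000524), lost only with the deposited scaling among the 21 alternatives, where it was -0.92 (adjusted p = 0.0502).

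Ugt35A1, the neighbour of Ugt35B1, read 94.3, 108 and 126 after WGA, 156, 184 and 199 after starvation, and 104, 125 and 168 in control. The difference of WGA against starvation was -0.71 ± 0.20 (adjusted p = 0.0324), and neither treatment passed the threshold against control. The call held in 11 of 21 alternatives, and with the deposited scaling the difference was -0.09. It was lost without WGA replicate 1 (-0.61), WGA replicate 2 (-0.71), starvation replicate 2 (-0.69), starvation replicate 3 (-0.63) or control replicate 2 (-0.70). Without control replicate 3 the change after starvation passed, at 0.63 (adjusted p = 0.0403). Ugt35C1, formerly Ugt86Dd and known from work on nicotine resistance in flies, read 90.2 to 99.1 after WGA, 78.1 to 100 after starvation and 54.4 to 137 in control. Its changes were 0.03 ± 0.27 after WGA and -0.03 ± 0.27 after starvation. The 95% intervals of these, -0.56 to 0.61 and -0.61 to 0.55, leave room for changes up to those bounds. Ugt304A1 was not called, at -0.51 ± 0.30 after WGA and 0.33 ± 0.30 after starvation.

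**Figure D2:**
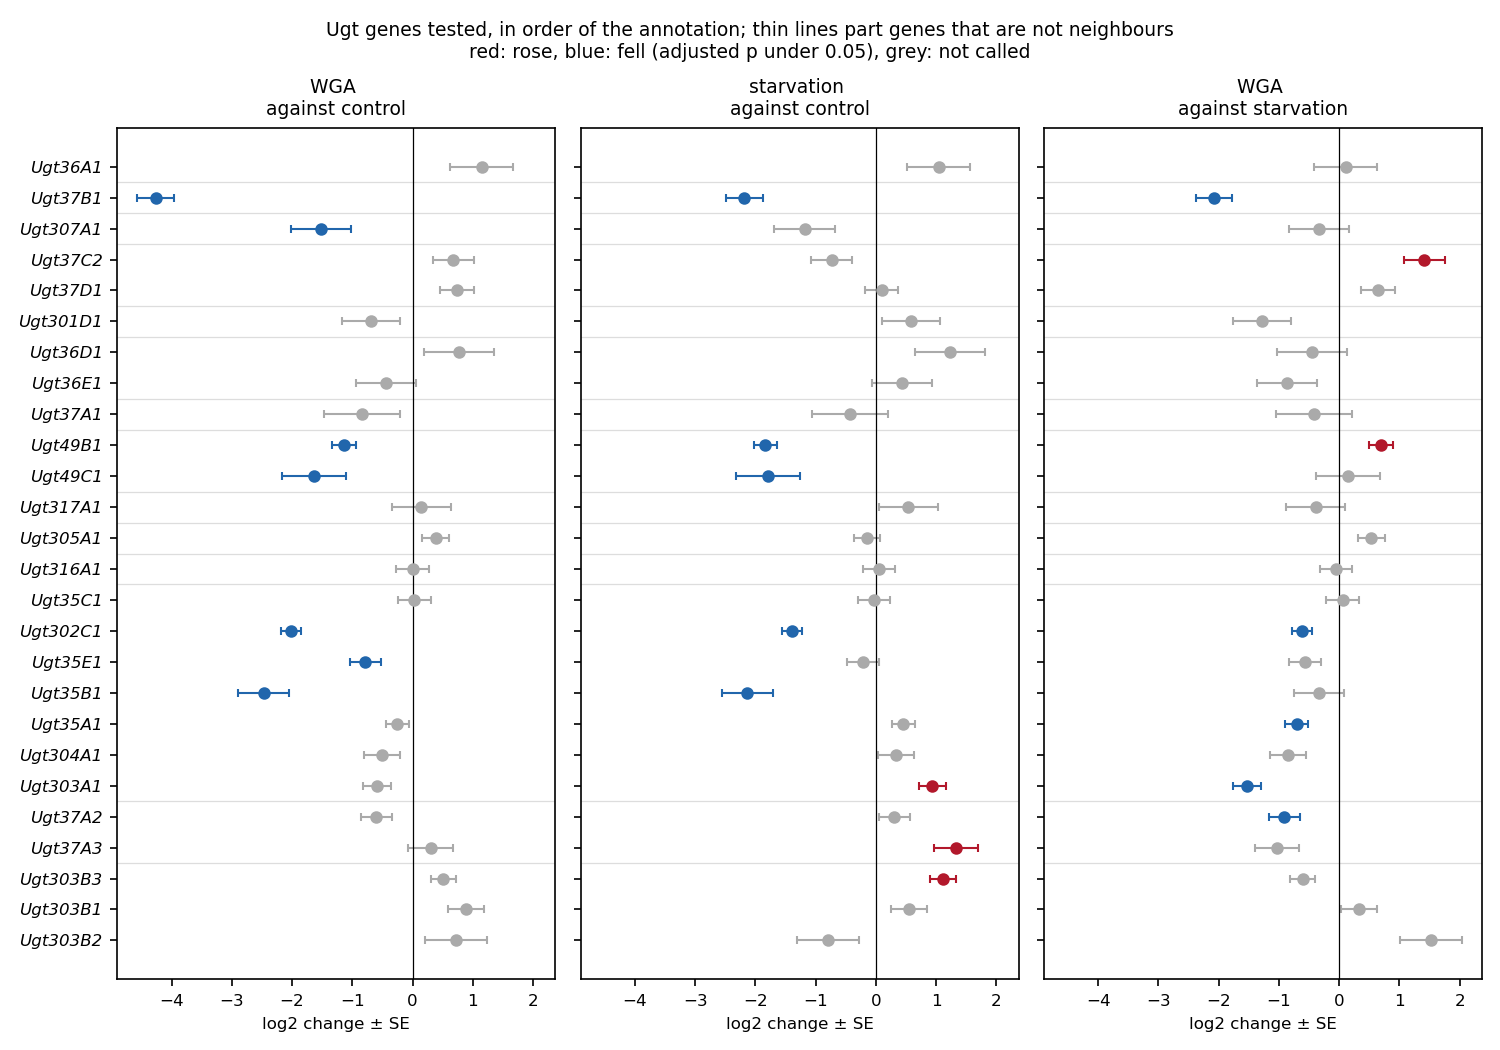
Log2 change ± SE (horizontal axis) of the 26 tested Ugt genes in 3 comparisons, in the order of the RefSeq annotation, with thin lines between genes that are not neighbours; red marks genes that rose, blue genes that fell and grey genes not called. The pair Ugt49B1 and Ugt49C1 is blue in both comparisons with control. The row from Ugt35C1 to Ugt303A1 holds blue and grey points for WGA against control, and blue, grey and red points for starvation against control.

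The neighbours Ugt49B1 and Ugt49C1 both fell in both treatments. Ugt49B1 read 90.7, 86.8 and 62.7 after WGA, 46.0, 53.0 and 46.3 after starvation, and 190, 204 and 142 in control, with no overlap among the 3 groups. Here starvation was the lower of the treatments. The falls were -1.14 ± 0.20 after WGA (2.21-fold lower, adjusted p = 0.000894) and -1.83 ± 0.20 after starvation (3.56-fold lower, adjusted p = 3.90e-05). WGA was higher than starvation by 0.69 ± 0.20 (adjusted p = 0.0393), a call that held in 12 of 21 alternatives and was lost without any 1 of the 3 starvation arrays (0.66 to 0.76), without WGA replicate 1 (0.60) or 2 (0.62) and without control replicate 2 (0.68). The fall after starvation held in all 21, and the fall after WGA in 19, missing the threshold under the deposited scaling (-0.66) and spike-in scaling (-0.59).

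Ugt49C1 read 8.14, 11.4 and 14.7 after WGA, 15.7, 21.9 and 2.04 after starvation, and 37.0, 42.4 and 36.0 in control. Every treated array lay below every control array, and starvation replicate 3 lay far below the other starvation arrays. The falls were -1.64 ± 0.53 after WGA (adjusted p = 0.0406) and -1.79 ± 0.53 after starvation (adjusted p = 0.0359). Without starvation replicate 3 the change after starvation was -0.98 (adjusted p = 0.056). The WGA call held in 10 of 21 alternatives and was lost on leaving out any 1 WGA array (-1.43 to -1.80) or any 1 control array (-1.56 to -1.70). Under the deposited scaling (-1.18) and spike-in scaling (-1.11) it was lost too. The starvation call held in 13 and was also lost on leaving out any 1 control array (-1.72 to -1.85) and under spike-in scaling (-1.27).

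Ugt307A1, a gene with no Ugt neighbour, read 3.44, 0.573 and 3.18 after WGA, 3.69, 1.54 and 4.90 after starvation, and 6.94, 11.9 and 9.86 in control. Every treated array lay under the filter level, and the control mean was 1.61-fold above that level. As a lower bound on the fall in either treatment, this value holds no sampling error. The WGA fall of -1.52 ± 0.50 passed narrowly (adjusted p = 0.046) and held in 6 of the 17 alternatives that tested it. It was lost on leaving out WGA replicate 1 (-1.70), 2 (-1.14) or 3 (-1.67), and starvation replicate 1 (-1.52) or 3 (-1.51). The call was also lost under the deposited scaling (-1.19), cyclic loess (-1.48) and spike-in scaling (-1.12). The starvation change of -1.18 ± 0.50 did not pass (adjusted p = 0.144).

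Starvation for 12 h moved Ugt genes both ways, with 5 falling and 3 rising among the 26 tested, by limma. The background was 7.09% of all probe sets falling and 8.12% rising. The arrays did not overlap for 10 of the 26, against 29.4% of all tested probe sets. The falls were those of Ugt37B1, Ugt35B1, Ugt302C1, Ugt49B1 and Ugt49C1 given above. The rises were Ugt37A3, Ugt303B3 and Ugt303A1. The median log2 change was 0.07, against 0.01 over all tested probe sets, and with spike-in scaling 4 rose and 4 fell, where 16.5% of all probe sets rose and 2.65% fell. Both treatments were set against the same 3 control arrays, so their calls are not independent.

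Ugt303B3, one of 3 adjacent genes, read 34.7, 42.7 and 34.4 after WGA, 62.1, 48.0 and 63.1 after starvation, and 23.6, 25.7 and 27.5 in control. The groups did not overlap, with starvation highest. It rose after starvation by 1.11 ± 0.21, or 2.16-fold (adjusted p = 0.00249), in the main analysis and in all 21 alternatives. After WGA the change was 0.51 ± 0.21 (adjusted p = 0.105), and it passed the threshold with the deposited scaling at 1.09, median centring at 0.70 and spike-in scaling at 1.15. Its neighbour Ugt303B1 read 19.4, 17.6 and 19.2 after WGA, 11.6, 14.2 and 18.3 after starvation, and 7.83, 12.7 and 8.19 in control, and just missed the threshold after WGA at 0.88 ± 0.30 (adjusted p = 0.0518). The third gene, Ugt303B2, read 5.30 to 7.27 after WGA, 0.512 to 2.07 after starvation and 1.99 to 5.68 in control. All its starvation arrays lay under the filter level, and the difference of WGA against starvation was 1.52 ± 0.52 (adjusted p = 0.0822).

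Ugt37A3 and Ugt37A2 are a further pair of neighbours. Ugt37A3 read 124, 231 and 211 after WGA, 424, 584 and 215 after starvation, and 97.2, 143 and 234 in control. Starvation replicate 3 lay within the control range. The gene rose after starvation by 1.33 ± 0.37 (adjusted p = 0.0253), a call that held in 16 of 21 alternatives. It was lost without control replicate 1 at 1.02, without control replicate 2 at 1.29, without starvation replicate 1 at 1.24 and without starvation replicate 2 at 1.02. Ugt37A2 read 66.2, 67.2 and 108 after WGA, 161, 183 and 112 after starvation, and 101, 103 and 167 in control. The difference of WGA against starvation was -0.91 ± 0.26 (adjusted p = 0.035), called in 12 of 21 alternatives, and -0.33 under the deposited scaling. It was not called without WGA replicate 1 (-0.80) or 2 (-0.81) or starvation replicate 1 (-0.86) or 2 (-0.77). Without starvation replicate 3 the difference of Ugt37A3 between the treatments passed, at -1.45 (adjusted p = 0.0143).

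Set directly against starvation, the WGA diet gave lower signals for 5 Ugt genes and higher signals for 2, by limma. The background was 5.57% of all probe sets lower and 5.94% higher. The arrays did not overlap for 12 of the 26, against 30.0% of all tested probe sets. The lower genes were Ugt37B1, Ugt303A1, Ugt37A2, Ugt35A1 and Ugt302C1, and the higher ones Ugt37C2 and Ugt49B1. The median log2 difference of the 26 was -0.40, against 0.01 over all tested probe sets. This split moved with the scaling. With the deposited scaling 4 were higher and 1 lower, where 10.3% of all probe sets were higher and 1.85% lower. With median centring 3 were higher and 2 lower, where 8.48% of all were higher and 3.54% lower. With cyclic loess 1 was higher and 4 lower (5.65% and 5.58% of all), and with spike-in scaling 1 was higher and 2 lower (3.90% and 2.77% of all). Ugt37B1 was lower after WGA and Ugt37C2 higher under each of these scalings.

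Ugt37C2, formerly Ugt36Ba, read 37.7, 38.7 and 36.6 after WGA, 21.7, 14.2 and 6.97 after starvation, and 26.4, 27.2 and 16.7 in control. All WGA arrays lay above all others. The difference of WGA against starvation was 1.41 ± 0.34, or 2.66-fold (adjusted p = 0.0141), and the call held in 20 of 21 alternatives, with the exception of leaving out WGA replicate 2 (1.38, adjusted p = 0.0564). Against control the changes were 0.67 ± 0.34 after WGA (adjusted p = 0.186) and -0.74 ± 0.34 after starvation (adjusted p = 0.179), and the starvation change passed without starvation replicate 1 at -1.08 (adjusted p = 0.0474). Ugt37D1 lies in the same row of 3 and read 363, 319 and 248 after WGA, 242, 277 and 111 after starvation, and 208, 185 and 159 in control. It was not called in any comparison. The change after WGA was 0.74 ± 0.28 (adjusted p = 0.0791), although the WGA and control arrays did not overlap. That change passed with the deposited scaling at 1.09, with spike-in scaling at 1.15 and without starvation replicate 3 at 0.75. It also passed, at 0.74, with only the groups compared in the fit (adjusted p = 0.0103). The gene between them, Ugt37E1, had too little signal to be tested.

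**Figure D3:**
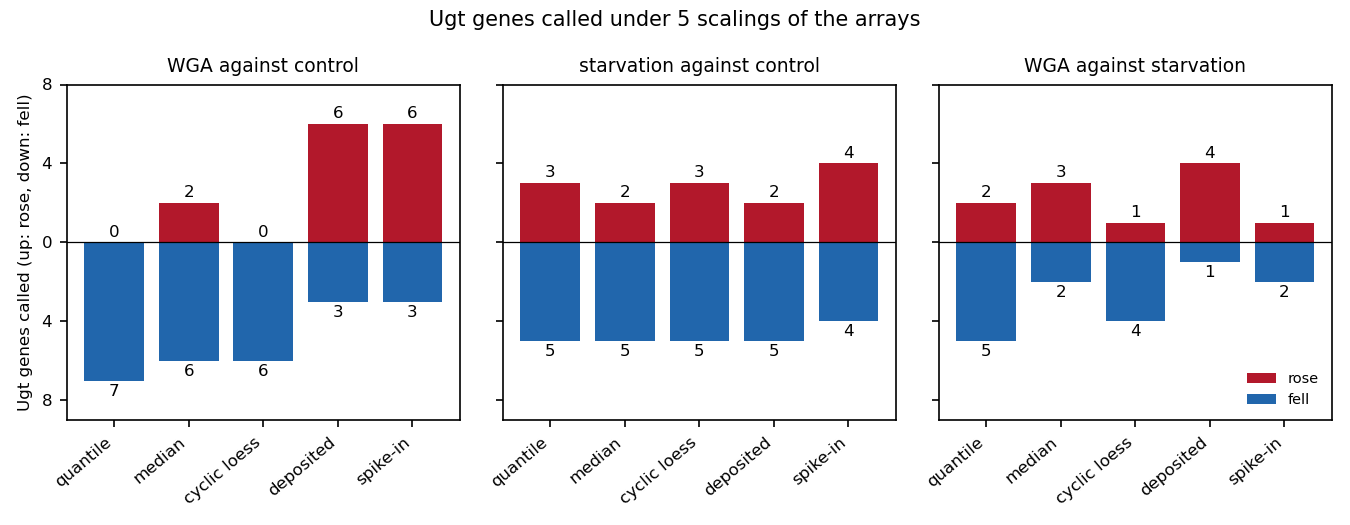
Number of Ugt genes called (adjusted p under 0.05) as higher (red, upward) or lower (blue, downward) in 3 comparisons under 5 scalings of the arrays. For WGA against control the split was 0 higher and 7 lower with quantile normalisation, and 6 higher and 3 lower with either the deposited or the spike-in scaling.

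The scalings differ in where they place the typical transcript. With the deposited scaling the median change over all tested probe sets was 0.48 in WGA against control, 0.12 in starvation against control and 0.35 in WGA against starvation. With spike-in scaling, which uses 9 control probe sets named BioB, BioC, BioDn and CreX, these medians were 0.53, 0.53 and -0.01. Whether these controls follow the amount of midgut RNA was not tested. The 6 Ugt genes that rose after WGA under both were Ugt303B1, Ugt303B3, Ugt305A1, Ugt36A1, Ugt37C2 and Ugt37D1, with changes of 0.95 (Ugt305A1) to 1.52 (Ugt36A1) under the deposited scaling. Ugt37B1, Ugt302C1 and Ugt35B1 fell under every scaling. The median of the tested Ugt genes was lower than that of all tested probe sets in WGA against control under all 5 scalings, at -0.08 under the deposited scaling and 0.16 under spike-in scaling.

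Among the 26 tested genes 13 were called in no comparison, and they include Ugt37D1, Ugt303B1 and Ugt303B2 above. Ugt36A1, also called Dot and known as a marker of pericardial and blood cell lineages, read 11.8 to 15 after WGA, 11.9 to 13.8 after starvation and 0.68 to 11.7 in control. Its changes were 1.15 ± 0.52 and 1.04 ± 0.52, and control replicate 3 alone lay under the filter level. Ugt305A1 read 81.7 to 89.5 after WGA, 51.3 to 63.0 after starvation and 53.4 to 93.8 in control, on a probe set whose name marks it as able to match more than 1 transcript. Its changes there were 0.38 after WGA, -0.15 after starvation and 0.53 for WGA against starvation. A dimmer probe set of Ugt305A1, also tested, gave 0.06, 0.19 and -0.13 in the same order, none of them called. Ugt301D1 read 5.28 to 16.7 after WGA, 15.1 to 54.5 after starvation and 11 to 30.0 in control, with WGA against starvation at -1.28 ± 0.48 (adjusted p = 0.121). Ugt316A1 had the change nearest 0 after WGA, 0.00 ± 0.27, with a 95% interval of -0.58 to 0.59. The rest, Ugt317A1, Ugt36D1, Ugt36E1 and Ugt37A1 besides Ugt35C1 and Ugt304A1, had changes against control between -0.84 (Ugt37A1 after WGA) and 1.23 (Ugt36D1 after starvation).

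Another 7 genes were under the filter level on most arrays and were not tested. They were Ugt302E1, Ugt302K1, Ugt35E2, Ugt36F1, Ugt37C1, Ugt37E1 and Ugt49B2. Ugt302K1 read 1.38 to 3.99 after WGA, 1.75 to 4.20 after starvation and 5.01 to 11.2 in control. Ugt49B2 read 0.445 to 1.51 after WGA, 1.58 to 4.12 after starvation and 2.18 to 8.98 in control. For Ugt302K1 both treatments lay below every control array, and for Ugt49B2 only the WGA arrays did. Probe sequences were not used here, so signal shared between near-identical Ugt copies cannot be told apart from signal of the named gene.

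Of 13 listed enzymes that supply the sugar donor or related UDP-sugars, 10 had a probe set and all 10 were tested. Of these, 1 rose and 1 fell after WGA, where 11.6% of all tested probe sets rose and 10.1% fell. After starvation 2 rose and 0 fell, where 8.12% of all rose and 7.09% fell. Pgm1, which interconverts glucose phosphates on the way to UDP-glucose, read 117, 108 and 96.7 after WGA, 183, 178 and 177 after starvation, and 79.6, 70.6 and 82.4 in control. It rose by 1.19 ± 0.15 after starvation (adjusted p = 0.000143) in all 21 alternatives and by 0.46 ± 0.15 after WGA (adjusted p = 0.0488) in 11 of them. The WGA call was lost without any 1 WGA array (0.39 to 0.53) or without control replicate 1 (0.47) or 2 (0.39). It was also lost without starvation replicate 2 (0.47), and the rise was 1.10 under spike-in scaling. In WGA against starvation Pgm1 alone of the 10 was called, where 5.57% of all tested probe sets were lower and 5.94% higher. It was lower after WGA, at -0.74 ± 0.15 (adjusted p = 0.00588), in 18 of 21 alternatives. That call was lost under the deposited scaling (-0.15), median centring (-0.39) and spike-in scaling (-0.55). Gfat2, the entry enzyme of hexosamine synthesis, rose after starvation by 0.72 ± 0.21 (adjusted p = 0.0328), a call that held in 14 of 21 alternatives. It was lost without control replicate 2 (0.47), starvation replicate 1 (0.62) or starvation replicate 2 (0.72). The Gfat2 call was also lost under the deposited scaling (0.67) and median centring (0.52), without a variance trend, and with only the groups compared in the fit. Galt, of galactose metabolism, fell after WGA with a change of -0.85 ± 0.18 (adjusted p = 0.00315), a call that was lost under the deposited scaling (-0.37) and spike-in scaling (-0.30). UGP, which makes UDP-glucose, and sgl, which turns it into UDP-glucuronate, were not called, at -0.58 ± 0.32 and -0.04 ± 0.21 after WGA.

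Of 7 tested genes for moving and recycling UDP-sugars in the endoplasmic reticulum and Golgi, Efr alone was called. Of all tested probe sets 21.7% were called after WGA and 15.2% after starvation. Efr encodes a nucleotide sugar transporter of the endoplasmic reticulum and read 67.7, 70.5 and 64.0 after WGA, 87.8, 74.4 and 62.1 after starvation, and 180, 151 and 129 in control. All treated arrays lay below all control arrays. Its change was -1.15 ± 0.19 after WGA (adjusted p = 0.000474) and -1.02 ± 0.19 after starvation (adjusted p = 0.00205). With spike-in scaling the changes were -0.58 and -0.59 and neither was called, and with the deposited scaling the WGA change of -0.65 was not called.

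Regulators of xenobiotic response were followed as a list of 10, of which 9 were tested. Hr96, a nuclear receptor with roles in xenobiotic and lipid metabolism, read 102, 97.9 and 80.2 after WGA, 17.9, 13.2 and 17.2 after starvation, and 16.8, 23.7 and 13.6 in control. The WGA arrays stood apart from both other groups, which overlapped. It rose after WGA by 2.29 ± 0.25 (adjusted p = 1.72e-05), and was higher after WGA than after starvation by 2.42 ± 0.25 (adjusted p = 2.20e-05), in all 21 alternatives for both. The change against control was 2.88 under the deposited scaling and 2.93 under spike-in scaling. After starvation the change was -0.13 ± 0.25 (adjusted p = 0.797), and its sign turned with the deposited scaling at 0.02 and spike-in scaling at 0.45.

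The transcription factor gene maf-S, partner of the antioxidant regulator cnc, rose in both treatments, by 0.70 ± 0.20 after WGA (adjusted p = 0.0239) and 1.15 ± 0.20 after starvation (adjusted p = 0.0015). The starvation call held in all 21 alternatives and the WGA call in 15, being lost without any 1 WGA array (0.65 to 0.71) and without control replicate 2 (0.69) or 3 (0.49). The WGA rise was 1.34 under spike-in scaling. tgo, the partner of bHLH-PAS factors such as ss, rose after starvation by 1.83 ± 0.50 (adjusted p = 0.0254), in 16 of 21, and the call was lost without control replicate 1 (1.39) or 2 (1.69) or starvation replicate 1 (1.77) or 3 (1.66). Without control replicate 3 the rise was 2.44. The regulator cnc itself was not called, at -0.53 ± 0.31 after WGA and -0.58 ± 0.31 after starvation. Nor was foxo, of the fasting response, at 0.47 ± 0.44 after WGA and 1.06 ± 0.44 after starvation.

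**Figure D4:**
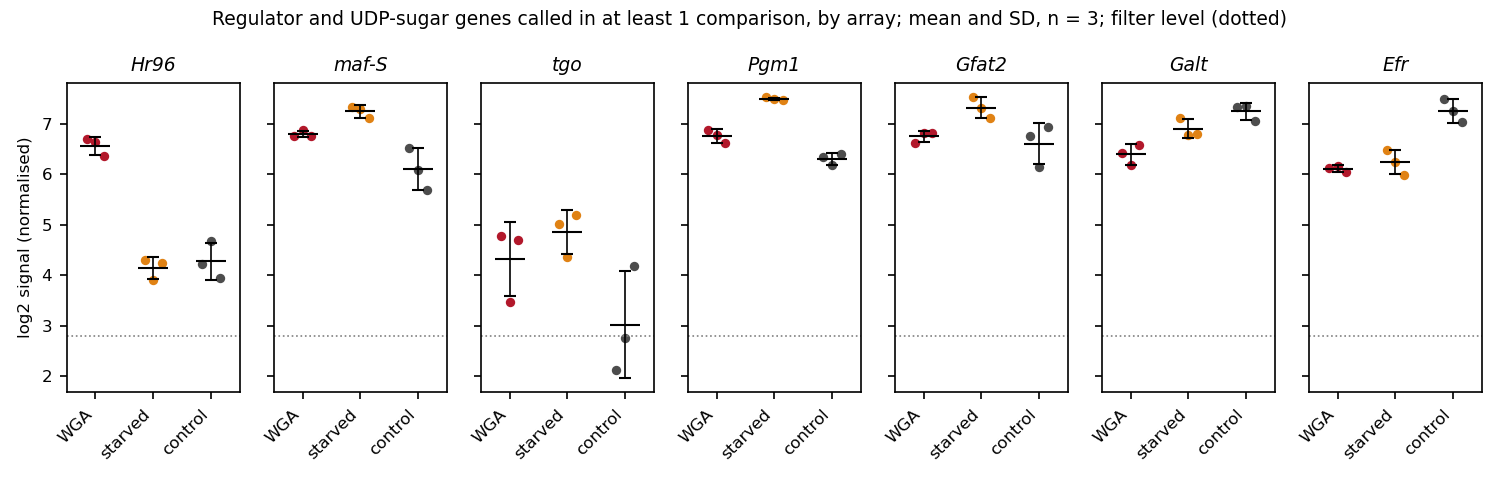
Log2 signal after quantile normalisation (vertical axis) of 3 regulator genes and 4 UDP-sugar genes on each array, with mean and SD of the 3 arrays of a group in black and the filter level of 2.79 dotted. Hr96 is high on the 3 WGA arrays, between 80.2 and 102 as a signal, and low on all others.

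Markers of other tissues that express Ugt genes were read beside these results. Of 8 listed Malpighian tubule genes 5 had a probe set, with summed normalised signals of 125 to 147 on WGA arrays, 121 to 170 on starvation arrays and 170 to 205 on control arrays. Of the 4 tested, Cyp6a18 fell in both treatments, with changes of -1.06 after WGA and -0.85 after starvation, and the others were not called. Their part in the Ugt falls was not tested. Of 6 fat body genes 3 had a probe set, summing to 174 to 305 on WGA arrays, 144 to 900 on starvation arrays and 212 to 274 on control arrays. The larval storage protein gene Lsp2 rose after starvation by 1.88 ± 0.52 (adjusted p = 0.0259). Its starvation arrays, 130 to 786, overlapped with its control arrays, 85.1 to 149. Enterocyte markers, which check the tissue, summed to 7358 to 8676 on WGA arrays, 15634 to 16929 on starvation arrays and 16370 to 18462 on control arrays. The protease genes Jon65Aiii and Jon65Aiv made up most of these sums. Jon65Aiii read 3307 to 3524 after WGA, 6849 to 7715 after starvation and 6931 to 8020 in control. Jon65Aiv read 2769 to 3809, 6564 to 6931 and 6442 to 6696 in the same order. Of the 7 tested enterocyte markers, 4 fell and 1 rose after WGA, and 1 fell and 1 rose after starvation. The marker that rose after WGA was mex1, by 1.05 ± 0.18 (adjusted p = 0.000875), with 572 to 630 after WGA against 241 to 325 in control. Of all tested probe sets 10.1% fell and 11.6% rose after WGA, and 7.09% fell and 8.12% rose after starvation. Enteroendocrine markers summed to 119 to 130 on WGA arrays, 156 to 170 on starvation arrays and 181 to 231 on control arrays, and 2 of 6 fell after WGA. Among 6 visceral muscle markers the lowest adjusted p was 0.139 (Mlc2 after starvation), and 5 of 6 salivary gland and 2 of 3 haemocyte markers with a probe set were too dim to be tested.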

How the data were processed

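Per the labels, biotin-labelled cRNA from each pool was hybridised to 1 Affymetrix array. The deposited values are linear signal intensities, 1 for each probe set and array, made with GCOS per the submitters' processing notes. Its algorithm and scaling target are not stated there. The 2% trimmed means of the arrays differed up to 1.90-fold.

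The 44 control probe sets were set aside. An offset of 1.72, the 20th percentile, was added, and log2 values were quantile normalised. Of 13966 probe sets, annotation gave 12443 a single gene, 327 several and 1196 none, and symbols were updated through RefSeq gene IDs for 12394. Group means were fitted with limma 3.58.1 in R 4.3.3 (lmFit, eBayes with a trend), and the fit was tested on simulated data. Normalised signals are linear, with the offset subtracted again, and log2 changes are on the scale of signal plus offset, which understates changes of dim genes. Neighbours come from the gene order of the RefSeq annotation, assembly Release 6, and no coordinates were used because the array names no build.

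Values on each array are given for every Ugt gene called in at least 1 comparison and for the 3 with the highest control mean, Ugt302C1, Ugt303A1 and Ugt37D1. List genes are those past the threshold, up to 4 per list and comparison, largest change first. The alternatives for these list genes were added after seeing the data. UGP, sgl, cnc, foxo and other genes outside this rule were named after their values were seen. The members and lists were chosen with earlier results of these data known. Arrays with the same replicate number were not treated as pairs. The labels name no batch, and one shared with a group cannot be told apart from it. Replicates are separate pools of midguts. The number of arrays limits the precision.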

Additional observations from a re-analysis of the deposited data

How the results depend on the processing

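Each of 55 gene results was recomputed under up to 21 alternatives, 1143 values in all, of which 980 kept their direction and their side of the threshold, 130 lost a call, 19 gained one and 14 changed sign. Among Ugt genes, calls that held in every alternative were those of Ugt302C1, Ugt35B1 and Ugt37B1 in WGA against control, of these 3 with Ugt303B3 and Ugt49B1 in starvation against control, and of Ugt37B1 in WGA against starvation. Among list genes they were those of Hr96 in both WGA comparisons and of Pgm1 and maf-S in starvation against control. The number of Ugt genes called was 4 to 6 with 1 array left out in WGA against control (7 with all), where leaving out any of the 3 WGA arrays gave 4. It was 5 to 8 in starvation against control (8 with all), with 5 without control replicate 1. It was 2 to 7 in WGA against starvation (7 with all), with 3 without WGA replicate 1, 2 without WGA replicate 2 and 3 without starvation replicate 2. Without a variance trend it was 5 in starvation against control and 4 in WGA against starvation, where spike-in scaling gave 3. The number of probe sets called was 1504 to 2176, 1039 to 1504 and 742 to 1191 with 1 array left out in these 3 comparisons, and in WGA against starvation it was 652 with spike-in scaling and 740 without a trend, against 1114. With a replicate block, 7, 9 and 9 Ugt genes were called, against 7, 8 and 7. In WGA against control it gained Ugt303A1 (adjusted p = 0.018) and Ugt37D1 (0.0129) among the genes with values on every array and lost Ugt307A1 (0.0513) and Ugt35E1 (0.0651). It also gained Ugt35A1 in starvation against control (0.0438) and Ugt37D1 in WGA against starvation (0.0416). Deviations of same-numbered arrays correlated at -0.038 to 0.096 across groups, and those of differently numbered arrays at -0.130 to 0.059. These ranges overlap, and they cannot show whether same-numbered arrays are pairs. These signs changed, in values that were not called in the main analysis or here. Ugt35A1 in WGA against control was 0.27 under the deposited scaling, 0.34 under spike-in scaling and -0.40 to -0.07 with 1 array left out. In starvation against control, Ugt37D1 was -0.0082 with the deposited scaling, -0.16 with median centring, -0.00043 without control replicate 3, -0.063 and -0.16 without starvation replicates 1 and 2, and up to 0.50 with 1 array left out. Ugt35E1 was 0.36 with spike-in scaling and -0.30 to -0.14 with 1 array left out. Hr96 was 0.022 with the deposited scaling, 0.45 with spike-in scaling and -0.30 to 0.070 with 1 array left out, the sign turning without control replicate 2. In WGA against starvation, Ugt307A1 was -0.63 to 0.039 with 1 array left out, the sign turning without WGA replicate 2, and Ugt49C1 was -0.66 (without starvation replicate 3) to 0.67, with -0.022 without WGA replicate 3. The cause of these shifts was not tested. Signals under the filter level limit the size of change that can be read for Ugt37B1, Ugt35B1, Ugt307A1 and Ugt303B2.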
